A study of Mus musculus with 6 samples.

Results

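The major histocompatibility complex (MHC) class II genes and their transactivator Ciita were examined in AE9a leukemia cells from mice injected with oil or tamoxifen. The set comprised 7 genes chosen by name, H2-Aa, H2-Ab1, H2-Eb1, Cd74, H2-DMa, H2-DMb1 and Ciita, and all 7 were found among the 53618 named rows of the deposited table. The leukemia cells carried Usp18+/f and UBCER-Cre, a tamoxifen-inducible Cre driven by a promoter active in all tissues, together with AE9a, a truncated AML1-ETO fusion delivered with GFP by retrovirus, and they were transplanted into recipient mice. After the mice had become sick, 3 received oil (control) and 3 received tamoxifen to remove the floxed Usp18 allele. GFP+Lin-c-Kit+ splenocytes were sorted 3 days after the first injection, and RNA from each mouse gave 1 bulk RNA-seq library. Both groups carried the same genotype until Cre was induced, the control was oil without tamoxifen, and only the transplanted cells carried Cre. The sort took lineage-negative cells, and the study itemises its lineage markers, B220 and CD11b among them, for its bone marrow analysis. How many cells that normally present antigen through class II remained after the sort was not measured.

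MHC class II molecules are pairs of an alpha and a beta chain that hold peptides on the surface of dendritic cells, B cells and macrophages for recognition by CD4+ T cells. Newly made pairs are held by the invariant chain Cd74, and H2-DM, itself a pair of H2-DMa and H2-DMb1, removes the remaining invariant chain fragment and loads peptide. Transcription of these genes is driven by CIITA, a coactivator that does not bind DNA itself but is recruited to factors on a conserved promoter module. That module holds an X box bound by the RFX complex and CREB and a Y box bound by NF-Y, and interferon-gamma is the best known inducer of Ciita outside antigen-presenting cells.

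The promoter sequences are shown because this module is what CIITA acts on, and because a pair of H2-DM beta genes with nearly the same module was read at very different levels. RefSeq promoter sequences (GRCm38.p6, the assembly of mm10) were matched for H2-Aa, H2-Eb1, H2-DMa and H2-DMb1 of the 7 members and for the paralog H2-DMb2. Those of H2-Ab1, Cd74 and Ciita were not matched. Each stretch below is 70 bases, read 5′ to 3′ on the strand of the gene. Capitals mark the Y box letters ATTGG, the X box core (AAC and TGANG, 3 bases apart) or the cyclic AMP response element TGACGTCA, searched on both strands. The last of these reads the same on both strands.
H2-Aa: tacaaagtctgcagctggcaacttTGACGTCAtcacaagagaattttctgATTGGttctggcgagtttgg
H2-Eb1: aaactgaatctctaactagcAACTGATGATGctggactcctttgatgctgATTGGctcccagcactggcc
H2-DMb1: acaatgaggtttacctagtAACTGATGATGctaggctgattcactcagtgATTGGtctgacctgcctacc
H2-DMb2: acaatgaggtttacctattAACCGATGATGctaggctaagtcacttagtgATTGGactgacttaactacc
The stretch of H2-Aa covered chr17:34287852-34287921 on the minus strand, and those of H2-Eb1, H2-DMb1 and H2-DMb2 covered chr17:34305758-34305827, chr17:34153080-34153149 and chr17:34145109-34145178 on the plus strand. The Y box shown began at position -48, -59, -61 and -90 from the RefSeq start of H2-Aa, H2-Eb1, H2-DMb1 and H2-DMb2. The 2 annotations disagree on the starts of H2-DMb1 and H2-DMb2, whose GENCODE spans begin upstream at 34153072 and 34143307, so that both stretches lie inside those spans. H2-Aa held the full cyclic AMP response element and not the X box core letters. The windows of H2-DMa, at its 2 RefSeq starts, held no match but a Y box at position -198 from one start. H2-DMb1 and H2-DMb2 were identical at 61 of the 70 positions (87.1%), whereas the other pairs were identical at 27.1% to 34.3% of positions. Of 32851 RefSeq promoter windows of 250 bases upstream, 33.8% held the Y box letters, 2.25% the X box core, 1.55% the cyclic AMP response element and 0.767% the X box core and the Y box together. The X box core pattern was written after the letters of these promoters had been read, so its presence in them is a description. The interferon-stimulated response element letters (GAAA and GAAA, 2 bases apart), present in 2.98% of windows, did not occur in the windows of the 4 members matched.

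Each library held 19172471 to 23785143 recovered reads, so that 1 read corresponded to a normalised value of 0.898 to 1.28, and 3 reads to at most 3.83. The library tamoxifen 1 stood apart from the others. Mitochondrial genes took 0.00923% of its reads against 1.01% to 1.56% elsewhere, and its median correlation with the other libraries was 0.913 against 0.981 to 0.990. Usp18, the targeted gene, went against the labels, with 217, 214 and 176 in oil and 477, 329 and 284 in the libraries labelled tamoxifen (log2 fold change 0.81 ± 0.25 (SE), limma adjusted p = 0.666). With limma library weights, described for Cd74, Usp18 was called higher in the libraries labelled tamoxifen (log2 fold change 0.52, adjusted p = 0.0348). That fit gave tamoxifen 1 a weight of 0.0377 and called 6.36% of all genes tested. No other fit called Usp18. Whether its reads fall in the floxed part cannot be told from values per gene. Kit, the marker used for the sort, was at 4687 to 10976 in all 6 libraries. All intervals on reads given here cover counting error only.

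Transcripts of the whole class II set were scarce in both groups. The 7 genes together received 655 reads over the 6 libraries, 94 to 138 per library, or 3.99 to 5.95 CPM of the recovered reads. H2-DMa and H2-DMb1 took 51.9% of these reads, Cd74 34.0%, the 3 classical chains 11.9% and Ciita 2.14%. The summed normalised value of the set was 87.3 to 124 in oil and 88.2 to 146 in tamoxifen, so the groups overlapped. In bulk RNA, fewer cells of a type and less RNA per cell cannot be told apart. The points for each library in the plot of member values show this division into 3 genes above and 4 genes near or under the filter used for testing, a value of at least 10 in at least 3 libraries.

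**Figure D1:**
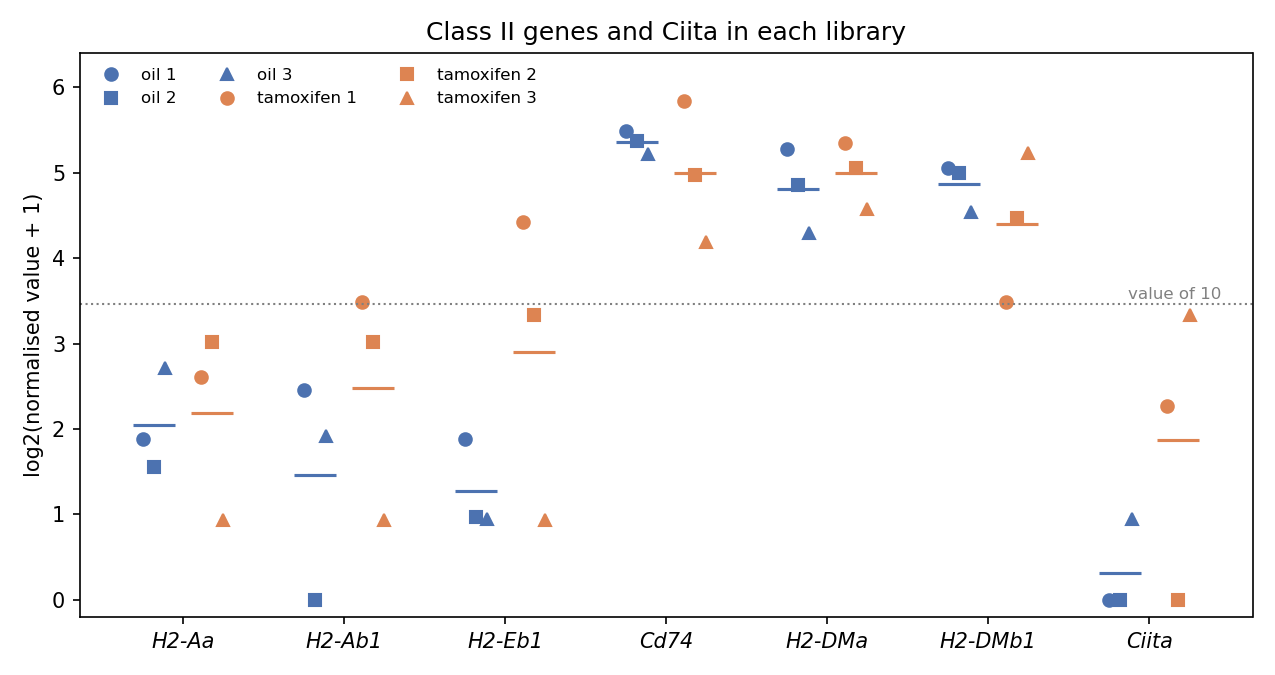
Normalised value of each class II gene and Ciita in every library, on the log2(value + 1) scale, with 3 oil and 3 tamoxifen libraries per gene and the group mean of the plotted values as a horizontal bar. Cd74, H2-DMa and H2-DMb1 lie above the dotted line at a value of 10 in every library, and for every gene the points of the 2 groups overlap.

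Cd74, H2-DMa and H2-DMb1 passed the filter on low values and entered the test, and H2-Aa, H2-Ab1, H2-Eb1 and Ciita did not. None of the 3 tested genes was called in limma at an adjusted p under 0.05, and neither was any of the 12298 genes tested (0%). At an unadjusted p under 0.05, limma passed 0 of the 3 members and 4.47% of all genes tested, and edgeR passed 0 of 3 and 4.85%. edgeR called no gene after adjustment over 12298 genes, and DESeq2, which the study names, called 71 of 24247 genes with a read and none of the 7 members. The groups overlapped for each of the 3 tested members, and 17.6% of all genes tested had groups that did not overlap. With 3 genes, this does not set the members apart from the other genes. The members under the filter also had overlapping groups, but that share does not cover them.

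The classical chains form the peptide-binding pairs, H2-A from H2-Aa and H2-Ab1, and H2-E from H2-Eb1 with an alpha chain that is defective in C57BL/6 mice, the strain of the recipients. H2-Aa (chr17:34282744-34287823, GRCm38), the alpha chain of H2-A, had normalised values of 2.69, 1.93 and 5.57 in oil and 5.11, 7.07 and 0.909 in tamoxifen, from 11 and 12 reads in all. The highest and the lowest value both belonged to tamoxifen libraries. Its ratio of pooled reads, tamoxifen over oil, was 1.23 (95% exact counting interval 0.495 to 3.07), and it turned to 0.779 without tamoxifen 2 and was 1.82 without tamoxifen 3.

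H2-Ab1 (chr17:34257689-34269419), the beta chain of H2-A, had values of 4.49, 0 and 2.79 in oil and 10.2, 7.07 and 0.909 in tamoxifen. Tamoxifen 1 and tamoxifen 2 lay above every oil library and tamoxifen 3 lay below 2 of them. The ratio of its 16 to 8 pooled reads was 2.25 (0.907 to 6.06), and 1.54 without tamoxifen 1.

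H2-Eb1 (chr17:34305867-34316674), the beta chain of H2-E, differed most among the classical chains. Its values were 2.69, 0.965 and 0.929 in oil, that is 3, 1 and 1 reads, and 20.4, 9.09 and 0.909 in tamoxifen, that is 16, 9 and 1 reads. Tamoxifen 1 and tamoxifen 2 were high, and tamoxifen 3 held 1 read like oil 2 and oil 3. The ratio of pooled reads was 5.84 (2.21 to 19.5), an interval that takes no account of the spread between mice, and 3.09 without tamoxifen 1. Of the 7 members, H2-Eb1 alone reached an unadjusted p under 0.05 in DESeq2 (log2 fold change 2.70 ± 1.26 (SE), DESeq2 adjusted p = 0.827), where 3.65% of all genes did. H2-Eb1 overlaps Gm20513 on the other strand, which was listed at 0 in every library.

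Over the 3 classical chains, the libraries held 11, 3 and 10 reads in oil and 28, 23 and 3 in tamoxifen. The libraries tamoxifen 1 and tamoxifen 2 thus held more classical chain reads than any oil library, and tamoxifen 3 shared the lowest count with oil 2. Of the 18 values, 10 rested on 3 reads or fewer.

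Ciita (chr16:10480059-10528418), the transactivator of the set, was listed at 0, 0 and 0.929 in oil and at 3.83, 0 and 9.09 in tamoxifen. It had a single read in oil and 13 in tamoxifen, of which 10 came from tamoxifen 3, the library with the fewest classical chain reads among the tamoxifen libraries. The ratio of pooled reads was 14.6 with a counting interval of 2.19 to 621, and it was 5.46 without tamoxifen 3 and 22.3 without tamoxifen 2. Ciita overlaps Dexi on the other strand, a gene at 257 to 644 in the 6 libraries, and whether strand was used in counting was not given in the sources used here. In DESeq2 the log2 fold change of Ciita was 3.70 ± 2.07 (SE) with an adjusted p of 0.840.

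The 4 genes under the filter were each compared by an exact two-sided permutation test over the 6 libraries, in which 3 against 3 libraries cannot give a p below 0.1. The exact p was 0.8 for H2-Aa, 0.3 for H2-Ab1, 0.4 for H2-Eb1 and 0.4 for Ciita, and 0.8, 0.533, 0.533 and 0.533 after Benjamini-Hochberg adjustment over these 4 exact tests. The mean value in oil and tamoxifen was 2.43 and 6.07 for H2-Ab1, 1.53 and 10.2 for H2-Eb1 and 0.310 and 4.31 for Ciita. With the smallest p the design allows at 0.1, these tests cannot pass 0.05 whatever the values, and the difference of the means stands as a description.

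Cd74, the invariant chain, was the most abundant member per length of exon by the mean of each group. In tamoxifen 3, H2-DMb1 was higher, at 21.6 per kb against 10.3 for Cd74. Cd74 had values of 44.0, 40.5 and 36.2 in oil and 56.2, 30.3 and 17.3 in tamoxifen. The tamoxifen libraries spread on both sides of the oil libraries, with 40.2 ± 3.91 (SD, n = 3) in oil and 34.6 ± 19.8 (SD, n = 3) in tamoxifen. Its log2 fold change on the log2(value + 1) scale was -0.36 ± 0.45 (SE, 95% interval -1.43 to 0.71, limma adjusted p = 0.700). Without tamoxifen 1, its highest library, the log2 fold change was -0.78 (limma adjusted p = 0.373), and without tamoxifen 3, its lowest, it was 0.042 (limma adjusted p = 0.952). When limma weighted each library by its agreement with the others, Cd74 fell (log2 fold change -0.99, adjusted p = 0.0386) and was the 1 member called, where 6.36% of all genes tested were called. Over all 19 alternatives its adjusted p in the models across all genes ranged from 0.0386 to 0.952.

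H2-DMa (chr17:34119541-34139101), the alpha chain of the peptide exchange factor, had values of 37.7, 28.0 and 18.6 in oil and 39.6, 32.3 and 22.7 in tamoxifen. The ranges nearly coincided, with 28.1 ± 9.58 (SD, n = 3) in oil and 31.6 ± 8.47 (SD, n = 3) in tamoxifen. The log2 fold change was 0.18 ± 0.38 (SE, 95% interval -0.73 to 1.10, limma adjusted p = 0.812), and 0.0062 without tamoxifen 1. The direction turned without oil 3 (-0.075) and with library weights (-0.14), and the value was 0.42 without oil 1. The annotated span of H2-DMa overlaps that of Brd2 on the other strand, at 6138 to 11854 in the 6 libraries, and how reads over both genes were assigned was not given in the sources used here.

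H2-DMb1 (chr17:34153072-34160230), the beta chain of the same factor, had values of 32.3, 30.9 and 22.3 in oil and 10.2, 21.2 and 36.4 in tamoxifen. The lowest and the highest library were both tamoxifen, with 28.5 ± 5.43 (SD, n = 3) in oil and 22.6 ± 13.1 (SD, n = 3) in tamoxifen. The log2 fold change was -0.47 ± 0.49 (SE, 95% interval -1.64 to 0.70, limma adjusted p = 0.672), and -0.016 without tamoxifen 1, its lowest library. It was -0.88 without tamoxifen 3, and the direction turned with library weights (0.15). The partner genes did not keep step across the tamoxifen libraries, since tamoxifen 1 had the highest H2-DMa value and the lowest H2-DMb1 value of all 6. Reads of H2-DMb1 could be shared with its close paralog H2-DMb2, which received 0 or 1 read per library.

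**Figure D2:**
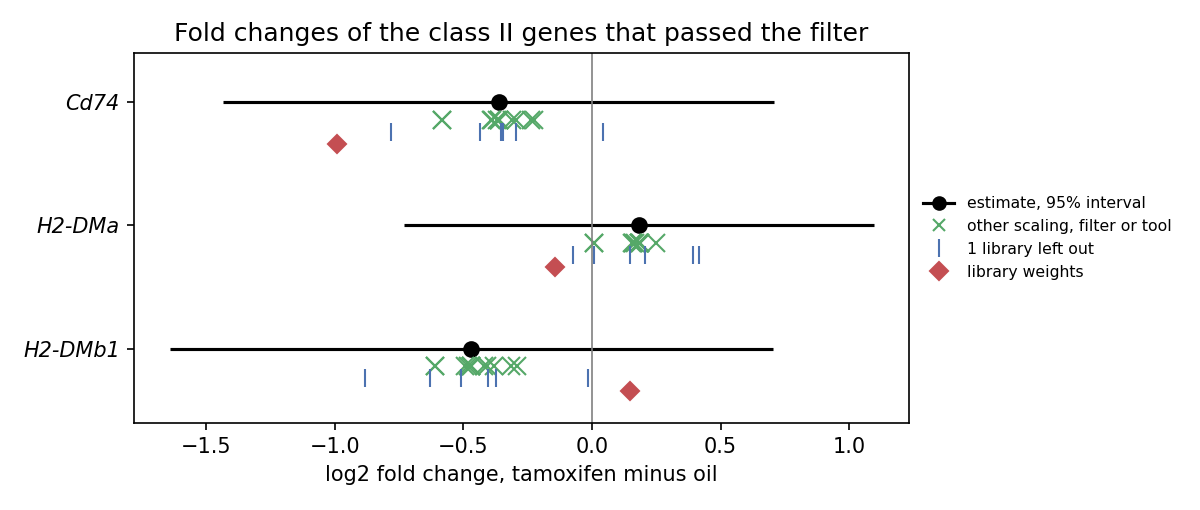
Log2 fold change, tamoxifen minus oil, of the 3 class II genes that passed the filter, with the limma estimate and its 95% interval in black and the alternative fits beneath it as crosses, bars and diamonds. Every black interval includes 0, the fits that leave out 1 library span 0 for Cd74 and H2-DMa, and the fit with library weights lies at -0.99 for Cd74.

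Compared per kb of exon, so that genes of different length can be set side by side, the mean normalised level in oil was 24.0 for Cd74, 17.0 for H2-DMb1, 8.15 for H2-DMa, 0.945 for H2-Ab1, 0.895 for H2-Aa, 0.787 for H2-Eb1 and 0.0325 for Ciita. In tamoxifen the order was Cd74 at 20.6, H2-DMb1 at 13.4, H2-DMa at 9.15, H2-Eb1 at 5.22, H2-Ab1 at 2.36, H2-Aa at 1.15 and Ciita at 0.452. H2-Eb1 was last of the classical chains in oil and first in tamoxifen, while the library ranges of these 3 chains overlapped in both groups. Cd74 stood above 18.7% of the genes tested in mean level per kb, H2-DMb1 above 14.5%, H2-DMa above 9.24% and the classical chains above 0.164% to 2.48%. Ciita lay below every gene tested.

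The class II region of chromosome 17 holds 5 of the 7 members within 197 kb, interleaved with genes of class I antigen presentation. Across these 5 members the level per kb ranged from 0 to 21.6 over the 6 libraries. Psmb9 and Psmb8, subunits of the immunoproteasome, and Tap1 and Tap2, which form the peptide transporter, lie between H2-DMb1 and H2-Ab1 and ranged from 219.7 to 757 per kb. Every library therefore held these 4 neighbours at a higher level per kb than any class II member.

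**Figure D3:**
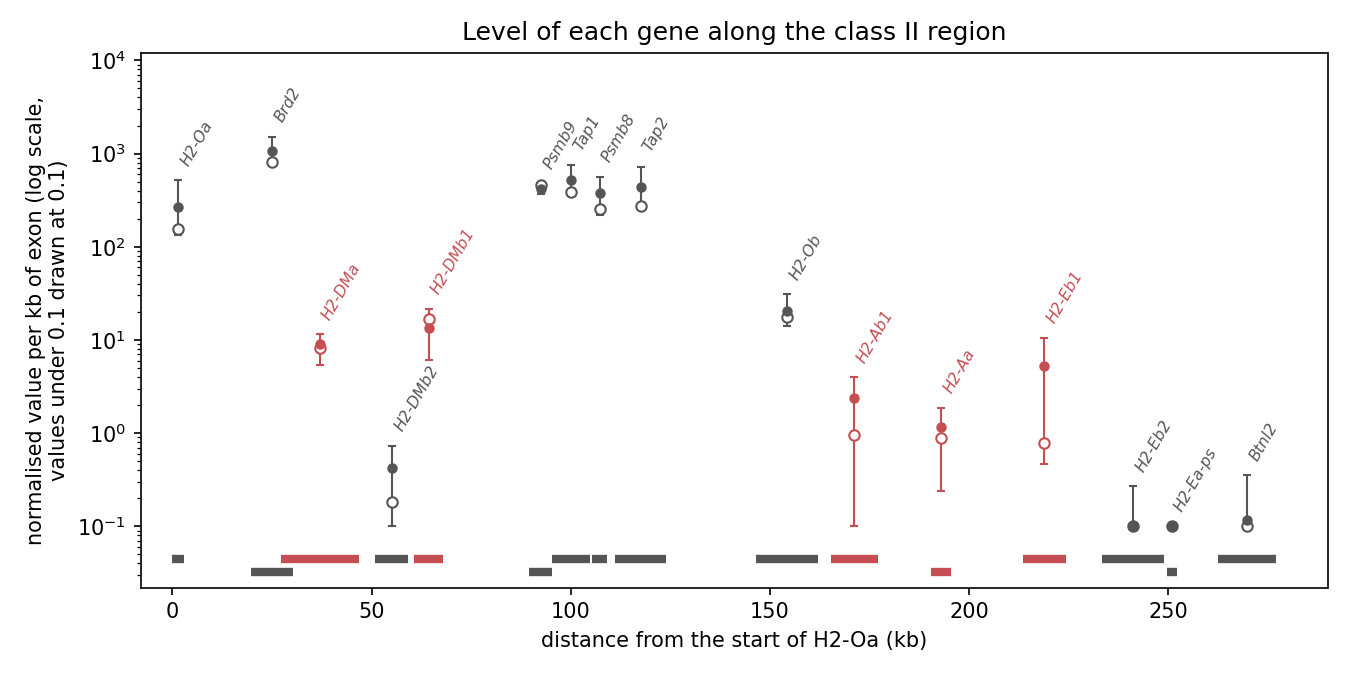
Normalised level per kb of exon (log scale, with values under 0.1 drawn at 0.1) of the genes along the class II region, against the distance in kb from the start of H2-Oa; members are red, open circles are oil means, filled circles tamoxifen means, and vertical bars the range over 6 libraries, and the blocks at the bottom show gene spans on the plus strand (upper) and minus strand (lower). The red members reach at most 21.6 per kb, below Psmb9, Tap1, Psmb8 and Tap2 at 219.7 to 757.

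The accessory chains of the region included H2-Oa and H2-Ob, the alpha and beta chains of H2-DO, which binds H2-DM and inhibits it. Of the 6 listed chains, 5 were found among the named rows, 2 were tested and none was called. Both estimates were above 0, with a median log2 fold change of 0.31 (0.067 without tamoxifen 1) against -0.017 over all genes tested. H2-Oa had values of 219, 210 and 222 in oil and 726, 201.05 and 189 in tamoxifen (log2 fold change 0.48 ± 0.52 (SE), limma adjusted p = 0.678), so the high value belonged to tamoxifen 1 alone. H2-Ob had 125, 75.3 and 83.6 in oil and 84.4, 76.8 and 165.5 in tamoxifen (log2 fold change 0.15 ± 0.37 (SE), limma adjusted p = 0.843), with the groups overlapping. Per kb of exon, H2-Oa exceeded its counterpart H2-DMa in every library, by a ratio of 14.2, 18.4 and 29.3 in oil and 44.9, 15.2 and 20.4 in tamoxifen. The ratio of H2-Ob to H2-DMb1 per kb was far smaller, at 1.21, 0.762 and 1.17 in oil and 2.58, 1.13 and 1.42 in tamoxifen. The alpha and beta chains of H2-DO were thus read at levels far apart, at 154 and 17.6 per kb in oil. H2-Oa overlaps BC051537 on the other strand, at 46.0 to 194 in the 6 libraries, and without the strand setting the reads of the pair cannot be told apart, which also bears on the ratio to H2-DMa. H2-Eb2 and H2-DMb2 received at most 1 read in a library and H2-Ea-ps, the defective H2-E alpha gene, none, which allows a value of at most 3.83 in the shallowest library.

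The factors that bind the class II promoter module were all present. Of the 7 listed, which form the RFX complex (Rfx5, Rfxap and Rfxank), NF-Y (Nfya, Nfyb and Nfyc) and CREB (Creb1), 7 were tested and none was called, with a median log2 fold change of 0.051. The 2 with the smallest p were Creb1, with 2353, 2709 and 2531 in oil and 574, 2422 and 2468 in tamoxifen (log2 fold change -0.74 ± 0.56 (SE), limma adjusted p = 0.666), and Rfxap, with 640, 642 and 666 in oil and 1364, 670 and 630 in tamoxifen (log2 fold change 0.36 ± 0.31 (SE), limma adjusted p = 0.666). In both cases the library set apart was tamoxifen 1.

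Of the 13 genes listed for the route from interferon-gamma to Ciita and for its regulators, 9 were tested, none was called and the median log2 fold change was -0.054. Socs1, the feedback inhibitor of JAK kinases, had 1002, 921 and 1082 in oil and 3328, 1440 and 1619 in tamoxifen. All tamoxifen libraries lay above all oil libraries, at a log2 fold change of 0.98 ± 0.32 (SE, limma adjusted p = 0.666). Without tamoxifen 1, Socs1 rose by 0.61 (limma adjusted p = 0.0426), and with library weights by 0.69 (limma adjusted p = 0.00295). Those fits called 0.333% and 6.36% of all genes tested. Irf1, a transcription factor that acts on a Ciita promoter, had 66.5, 76.2 and 72.4 in oil and 221, 92.9 and 96.4 in tamoxifen, also without overlap (log2 fold change 0.80 ± 0.37 (SE), limma adjusted p = 0.666). Ifngr1, a chain of the interferon-gamma receptor named after its values were seen, was the other gene of this list without overlap, lower in tamoxifen, with 596, 566 and 598 in oil and 187, 554 and 457 in tamoxifen (log2 fold change -0.70 ± 0.40 (SE), limma adjusted p = 0.666). These 3 of 9 tested genes without overlap stand beside 17.6% of all genes tested. Ifng itself, named after its values were seen, had no read in any library.

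For the enzymes that prepare antigen and trim the invariant chain, 6 of 7 listed genes were tested and none was called, with a median log2 fold change of 0.26, and 0.0073 without tamoxifen 1. Lgmn, an asparaginyl endopeptidase of lysosomes, had 8.08, 10.6 and 13 in oil and 37.1, 17.2 and 15.5 in tamoxifen without overlap (log2 fold change 0.98 ± 0.44 (SE), limma adjusted p = 0.666). Ctss, the cathepsin that cuts the invariant chain in antigen-presenting cells, had 12.6, 3.86 and 5.57 in oil and 14.1, 20.2 and 8.18 in tamoxifen (log2 fold change 0.92 ± 0.55 (SE), limma adjusted p = 0.666). With library weights 1 gene of this list was called, Ifi30, a lysosomal thiol reductase, which fell (log2 fold change -0.60, limma adjusted p = 0.0341), where 6.36% of all genes tested were called. Of the 6 neighbours of the region 5 were tested and none was called, with a median log2 fold change of 0.35, and 0.045 without tamoxifen 1. The smallest p in that list belonged to Tap2 (log2 fold change 0.57 ± 0.36 (SE), limma adjusted p = 0.666) and Psmb8 (0.49 ± 0.31 (SE), limma adjusted p = 0.666).

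Markers of cells that normally express class II are set beside these values in the plot of summed marker values. Of the 15 B cell markers 4 were tested, none was called, and 5 were at 0 in every library, among them the defining markers Ms4a1 and Cd22. Their summed value was 53.1 to 82.6 in oil and 102 to 217 in tamoxifen, with no overlap. That sum was led by the immunoglobulin genes Igkc and Ighm, and whether it separates without them was not tested. Of the 4 tested B cell markers 1, Ighm, had groups that did not overlap, beside 17.6% of all genes tested. Igkc, the kappa light chain constant region, had 28.7, 14.5 and 20.4 in oil and 139, 131 and 19.1 in tamoxifen, so it was high in tamoxifen 1 and tamoxifen 2, the libraries with the most H2-Eb1. Ighm, the mu heavy chain, had 21.6, 3.86 and 20.4 in oil and 33.2, 46.5 and 34.6 in tamoxifen (limma adjusted p = 0.666), and Cr2 had 8.98, 11.6 and 7.43 in oil and 0, 18.2 and 15.5 in tamoxifen. Cr2 was the 1 tested B cell marker with a log2 fold change below 0 (-0.58).

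Of the 12 macrophage markers 8 were tested and none was called, while 4 of the 8, C1qa, C1qb, C1qc and Csf1r, had an unadjusted p under 0.05 in limma, against 4.47% of all genes tested. Their median log2 fold change was 1.10, or 1.21 without tamoxifen 1, with all 8 estimates above 0, and their summed value was 110 to 263 in oil and 294 to 404 in tamoxifen, again with no overlap. The leading markers were Vcam1 with a mean of 31.7 in oil and 64.4 in tamoxifen, Cd68 with 30.5 and 42.8 and C1qc with 18.3 and 46.9. Adgre1, which encodes the macrophage antigen F4/80, was at 0.929 to 11.1, and Vsig4 was at 0 in every library. The part of these cell types in the class II values was not tested.

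Of the 12 dendritic cell markers 4 were tested and none was called, and their summed value overlapped, at 3380 to 3992 in oil and 3737 to 6349 in tamoxifen. That sum rested on Bst2 (mean 1708 and 3189), Cst3 (1777 and 1338) and Zbtb46 (102 and 131), whereas Clec9a and Cd209a were at 0 in every library and Itgax and Siglech at 0 or 1 read. Clec10a, named after its values were seen, had the smallest p of the list, with 65.6, 31.8 and 44.6 in oil and 169.98, 86.9 and 97.3 in tamoxifen without overlap (log2 fold change 1.30 ± 0.39 (SE), limma adjusted p = 0.666). The monocyte sum was 454 to 532 in oil and 178 to 665 in tamoxifen, led by Ccr2 (mean 439.8 and 341), Cx3cr1 (53.0 and 114) and Chil3 (0.643 and 4.602). The T cell sum was 750.2 to 808 and 747 to 1126, led by Lat (374 and 623), Cd247 (364 and 246) and Lck (48.3 and 60.8), with Cd3e, Cd2 and Cd5 at 0 in every library. No NK cell marker passed the filter and 4 of 6 were at 0. In the list named leukemia gate, only Kit was a marker of the sort. The sum for this list was 22068 to 27013 in oil and 21303 to 26703 in tamoxifen, led by Gata2, Kit and Myb. None of its 5 tested genes was called, and 2 did not overlap between the groups, as did 17.6% of all genes tested. Myb was lower in tamoxifen (mean 5807 and 4483, log2 fold change -0.40 ± 0.24 (SE), limma adjusted p = 0.666). Elane, a granule protease, was higher, with 1.80, 0 and 1.86 in oil and 10.2, 11.1 and 10.003 in tamoxifen (log2 fold change 2.52 ± 0.56 (SE), limma adjusted p = 0.666). Elane passed the filter only through the tamoxifen libraries, where it was high. Its fold change and lack of overlap therefore stand as a description and not as a test.

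**Figure D4:**
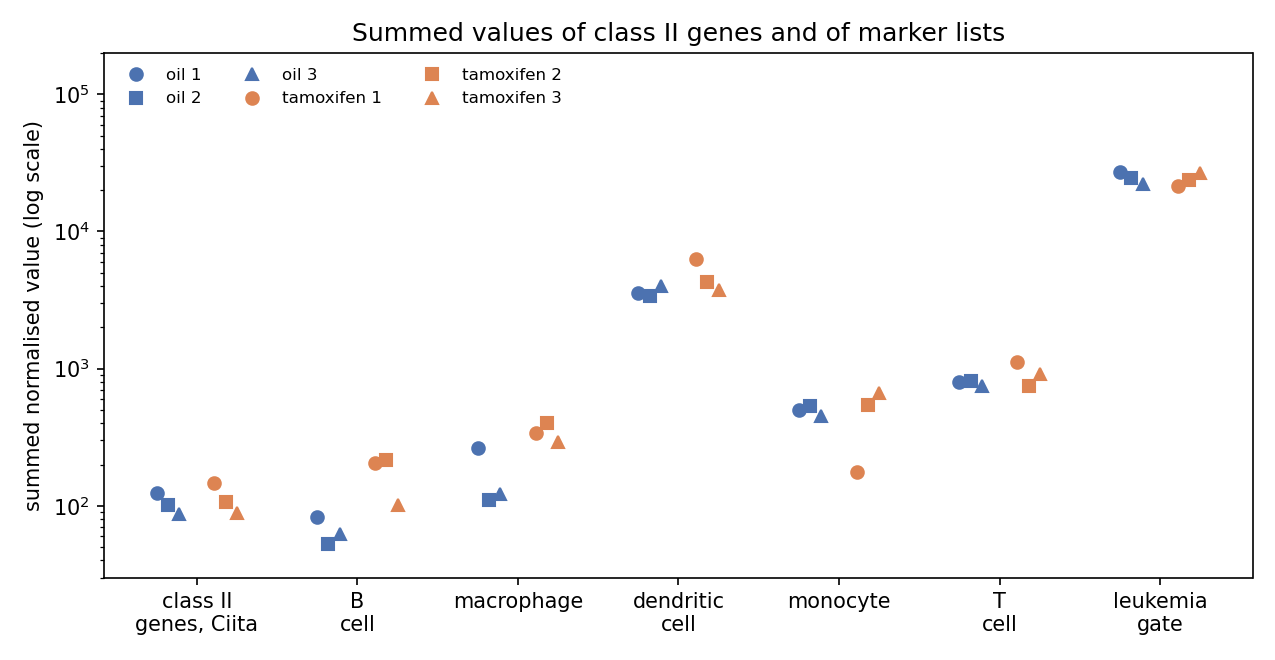
Summed normalised value (log scale) of the 7 class II genes with Ciita and of the marker lists in each of the 3 oil and 3 tamoxifen libraries. The class II sums overlap between the groups at 87.3 to 146, while the B cell sums (at most 82.6 in oil, at least 102 in tamoxifen) and the macrophage sums (at most 263 in oil, at least 294 in tamoxifen) do not. The B cell sums were led by Igkc and Ighm.

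The genes whose profile over the 6 libraries was most like that of Cd74, the one tested gene among the classical chains and the invariant chain, were found by the root-mean-square difference of the centred log2(value + 1) profiles. These were Smpd2 at 0.105, Nat8f1 at 0.136, Rpl3-ps1 at 0.150, Gm11713 at 0.153 and Mpnd at 0.155. Smpd2, a sphingomyelinase, had 60.2, 64.6 and 52.9 in oil and 70.3, 43.4 and 23.6 in tamoxifen, with the same order of the tamoxifen libraries as Cd74. The members were left out of this search, so none of them could appear among these 5.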

How the data were processed

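Bulk RNA-seq was performed on GFP+Lin-c-Kit+ splenocytes, with 3 mice per group. Per the labels, libraries were made with the Nextera DNA Flex kit and the authors used STAR, mm10 and DESeq2, while the study's methods name a sequencing service and no kit; the annotation release, strand setting and filters were not given in the sources used here. The deposited values are a signal, gene counts that the authors divided by 1 size factor per library, and every value came out as a whole read within 0.1 (100%) when divided by the library's smallest step. Rows without a gene name (1832 of 55450) held 0.0400% to 0.0614% of reads and were left out.

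Groups were compared with limma 3.58.1 (trended empirical Bayes, R 4.3.3) on log2(value + 1) for the 12298 genes with a value of at least 10 in at least 3 libraries, and p-values were adjusted by Benjamini-Hochberg over all of them at 0.05. This filter needs no group label, and a fold change on this scale understates the change of low genes. Recovered reads were also tested with edgeR 4.0.16, DESeq2 1.42.0 and limma voom. Pooled read ratios were scaled by the size factors and carry exact binomial 95% intervals for counting error. The scripts were tested on simulated data. Gene spans, exon lengths and GC content came from GENCODE mouse release 21. Alternatives were other scalings, pseudocounts of 0.5 and 5, other filters and tools, library weights, a replicate block, a GC correction by loess (span 0.3) and leaving out each library.

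The members and gene lists were chosen with earlier results of these data known. Named were the members, Usp18, the 2 tested genes with the smallest p and any called gene of each related list, the 3 markers with the highest mean of each list and the 5 genes most like Cd74. Other markers and list genes in the text, such as those at or near 0, C1qa, C1qb, Csf1r and Elane, were named after their values were seen.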

Additional observations from a re-analysis of the deposited data

How the results depend on the processing

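None of the 3 tested members was called in 18 of the 19 alternatives to the limma fit, and library weights were the exception. With library weights, in which tamoxifen 1 had a weight of 0.0377 and the other libraries 0.956 to 3.37, 782 of 12298 genes were called. That fit called 1 member, Cd74 (log2 fold change -0.99), 1 gene of the interferon-gamma route (Socs1) and 1 of antigen processing (Ifi30), and it turned H2-DMa to -0.14 and H2-DMb1 to 0.15. With each library left out in turn, the number of members called was 0 throughout. The log2 fold change of Cd74 then ranged from -0.78 (without tamoxifen 1) to 0.042 (without tamoxifen 3), that of H2-DMa from -0.075 (without oil 3) to 0.42 and that of H2-DMb1 from -0.88 to -0.016. The number called on the interferon-gamma route ranged from 0 to 1, with 1 called without tamoxifen 1, where 41 of all 12298 genes were called. The read ratio ranged from 0.779 to 1.82 for H2-Aa, from 1.52 to 3.93 for H2-Ab1, from 3.09 to 9.57 for H2-Eb1 and from 5.46 to 22.3 for Ciita, for which no ratio exists without oil 3 because no oil read is left. The cause of these changes was not tested.

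Libraries with the same number did not deviate together (correlations -0.024, 0.061 and -0.15), which gave no sign that the numbers pair the samples. With few libraries per group and tamoxifen 1 set apart, these correlations cannot exclude pairing. With the replicate block the log2 fold changes stayed at -0.36, 0.18 and -0.47 for Cd74, H2-DMa and H2-DMb1, and 0 members and 0 of all genes were called. Together with the GC correction the replicate block gave -0.58, 0.0093 and -0.61 and 0 members called. The median log2 fold change of all genes was 0.11 in DESeq2, which fits every gene with a read, and between -0.042 and 0.052 in the other fits. Of the 24 values of H2-Aa, H2-Ab1, H2-Eb1 and Ciita, 15 rest on 3 reads or fewer. The counting interval of the read ratio included 1 for H2-Aa and H2-Ab1. It lay above 1 for H2-Eb1 and for Ciita, which had 1 oil read. These intervals leave out the spread between mice, so they do not tell which genes differ between the groups. The tamoxifen libraries of H2-Eb1 and Ciita spread from 1 to 16 and from 0 to 10 reads.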
